A study of Zea mays with 47 samples.

Results

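The 100 genes described here were lower at 32°C than at 25°C in leaves of maize seedlings and had about the same level at 38°C as at 32°C. They were chosen from 17905 genes by their own expression. The level of a gene was the mean of log2(CPM + 1) over the libraries of a heat level, where CPM stands for counts relative to library size, with library sizes scaled by TMM (trimmed mean of M values). Genes with a mean CPM of at least 1 were kept (14062 genes), then those whose levels at 32 and 38°C differed by less than 0.3 (9487 genes), and the 100 with the largest fall, the level at 25°C minus that at 32°C, were taken. The fall and the step from 32 to 38°C are therefore given as a description without a test. The seedlings belonged to 8 European inbred lines, grown at day temperatures of 25, 32 or 38°C with nights 5°C cooler. All plants started at 25°C, heat began after 6 days, and the youngest fully developed leaf was sampled at 21 days. S058, S067, S070 and P040 are lines of the Dent pool, L043, L012, L023 and L017 of the Flint pool, and the study had chosen S058, S067, L043 and L012 as heat tolerant and S070, P040, L023 and L017 as heat susceptible. Leaf pieces of 5 plants were pooled for a library, and every line had 2 libraries at every temperature except L017, which had 1 at 32°C, for a total of 47. Each heat level was a separate run of the growth chamber experiment, so heat level and run cannot be told apart. In leaf pieces, fewer cells of a type and less RNA per cell cannot be told apart either.

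Plants assimilate nitrate in leaves by reducing it to nitrite with nitrate reductase and then to ammonium with nitrite reductase, an enzyme that carries siroheme. Leaves store part of the day's carbon as starch, which is built from ADP-glucose by starch synthases and trimmed by isoamylases. Maize leaves also make volatile compounds, among them sesquiterpenes from terpene synthases and methyl anthranilate from anthranilic acid methyltransferases, and take up and move water through aquaporins of the plasma membrane. Genes of each of these processes stood among the 100.

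Reads assigned to genes ranged from 7747441 to 20642205 per library at 25°C, from 8059394 to 17529195 at 32°C and from 3687700 to 13912372 at 38°C. A set of 11 genes, none of them among the 100, held 73.6% of all counts. The mesophyll markers (3 genes) summed to 3087 to 5800 CPM at 25°C, 1337 to 5084 at 32°C and 1587 to 4430 at 38°C. The bundle sheath markers (3 genes) summed to 333 to 1487, 137 to 1119 and 199 to 770.0 CPM. A further marker planned for each cell type, carbonic anhydrase and PEP carboxykinase, was not in these sums. NADP-malic enzyme gave most of the bundle sheath sum, with a mean of 628 CPM at 25°C against 55.5 and 32.2 CPM for the Rubisco small subunits. Within these sums the markers did not move together. The fall in mean log2(CPM + 1) from 25 to 32°C was 0.80 for PPDK, 0.13 for malate dehydrogenase and -0.04 for PEP carboxylase in mesophyll. In bundle sheath it was 0.38 for NADP-malic enzyme, and -0.60 and -0.99 for the Rubisco small subunits. No marker was at 0 in a library, and the part of these sums in the results below was not tested. A group of 3 libraries stood apart from their labels. Over 14062 genes, the library labelled S070 at 32°C replicate 1 correlated best with a P040 library (r = 0.597, against at most 0.099 with its own line), that labelled P040 at 32°C replicate 1 with an S070 library (r = 0.621 against 0.018), and that labelled P040 at 25°C replicate 1 with an L017 library (r = 0.423 against 0.285). These correlations are across genes, which are not independent replicates. In all, 6 of 47 libraries correlated best with another line. The other 3 of them (P040 at 25°C replicate 2, r = 0.597 against 0.555, S070 at 32°C replicate 2, 0.621 against 0.572, and P040 at 32°C replicate 2, 0.428 against 0.371) had as their best match one of the 3 libraries already named. Counts of called genes are given with and without those 3 libraries, as are the single tests named below whose call changed or whose size moved by over 1.5 times without them.

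The fall of the 100 genes ranged from 0.97 to 2.41 with a median of 1.12, while the median over all 17905 genes was -0.01. A fall of 1 is a 2-fold drop of CPM + 1. The fall was at least 1 in 91 of the genes and at least 1.5 in 16. From 32 to 38°C the genes moved by -0.28 to 0.30 with a median of 0.04, and 58 were higher and 42 lower at 38°C. The sum of their CPM was 2357 to 3595 in single libraries at 25°C, 686 to 1533 at 32°C and 932 to 1402 at 38°C, so no library at 32 or 38°C reached the lowest at 25°C. This group is the flat part of a wider set, since 324 genes with a mean CPM of at least 1 fell at least as far, of which 63 were lower still at 38°C by 0.3 or more and 161 higher again by 0.3 or more. The last genes inside the limit were GRMZM2G074122 and GRMZM2G099319 (0.98 each) and GRMZM2G165919 (0.97), and the first outside were AAMT3 (0.97), GRMZM2G014154 (0.97) and GRMZM2G117707 (0.97). At the flat limit, GRMZM2G130548 (0.30) and GRMZM2G304091 (0.29) lay just inside and GRMZM6G198866 (-0.30) and GRMZM2G024391 (0.31) just outside. The flatness holds on the TMM scale. With CPM on library totals, which moved the median step of all genes from 32 to 38°C from 0.03 to 0.75, the median fall of the 100 genes was 0.49, their median second step 0.89, and the rule would have picked none of them.

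**Figure D1:**
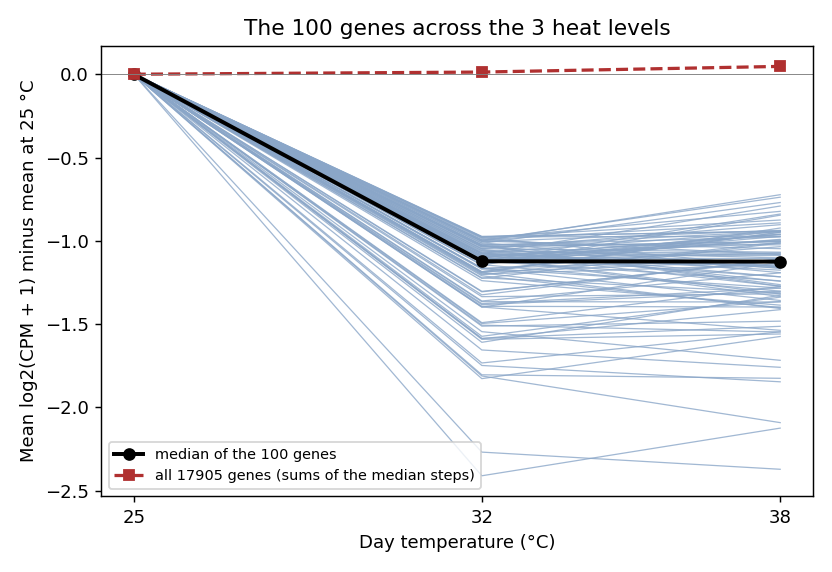
Mean log2(CPM + 1) of each of the 100 genes at the 3 day temperatures, relative to its mean at 25°C (thin lines), with the median of the 100 (black) and the medians of the steps over all 17905 genes (dashed). The lines drop by 0.97 to 2.41 from 25 to 32°C and then stay within 0.3 of that level, as the rule requires.

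Among the genes of volatile synthesis, tps1, AAMT2 and AAMT1 belonged to the 100. The gene tps1 (GRMZM2G049538, chr2:10602719-10611664 in B73 RefGen_v3) is described as an acyclic sesquiterpene synthase. It also carries the names eks1 and KS, of a kaurene synthase, so its place in volatile synthesis rests on the name tps1. Its lowest, median and highest libraries were 3.34, 103 and 162 CPM at 25°C, 0.222, 10.5 and 60.8 CPM at 32°C, and 2.07, 10.5 and 31.9 CPM at 38°C, a fall of 2.27. The groups overlapped. In S067 tps1 was between 2.07 and 6.43 CPM at every heat level, and in P040 the 25°C library that resembled another line had 101 CPM and the other 3.97 CPM. In S070 the level went from 158 and 162 CPM at 25°C to 1.64 and 15.2 CPM at 32°C, the lower value in the library that resembled P040. AAMT1 and AAMT2 encode anthranilic acid methyltransferases and lie close together on chromosome 9 of the RefSeq annotation, with 1 gene between them. AAMT2 (GRMZM2G116966) had the highest mean level of the 100 genes, 76.7 CPM, with 27.7, 125 and 274 CPM at 25°C, 0.492, 54.0 and 100 CPM at 32°C and 0.138, 48.2 and 92.4 CPM at 38°C. AAMT1 (GRMZM2G039993) ran from 0.159 to 69.2 CPM with a median of 11.4 at 25°C, and had medians of 3.40 CPM at 32°C and 1.71 CPM at 38°C. Both were lowest in P040, where AAMT2 was 0.138 and 0.725 CPM at 38°C. The fall of AAMT2 in S070 was 4.30 with the 32°C library that resembled P040 and 2.03 without it. AAMT1 in P040 was 24.7 CPM in the 25°C library that resembled another line and at most 0.998 CPM in the line's other 5 libraries. The third family member, AAMT3 (GRMZM2G063438), missed the 100 by its smaller fall on the log2(CPM + 1) scale. Its fitted change was -1.83 ± 0.37 (SE) from 25 to 32°C over the 8 lines (adjusted p = 0.00022, edgeR's quasi-likelihood test), and -1.49 ± 0.36 without the 3 libraries that resembled another line. Of 8 measured genes of volatile synthesis, a set drawn up after the 100 were known, AAMT3 was thus the only one of the 5 outside the 100 called lower. The other 4 did not pass. Among them stc1 changed by 0.07 ± 0.15 (SE), while tps26, tps6/tps11 and TPS8 had standard errors of 4037, 20177 and 3738. Their mean levels were 0.14, 1.98 and 0.78 CPM. With standard errors of that size the test could not decide whether the level of these genes changed.

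**Figure D2:**
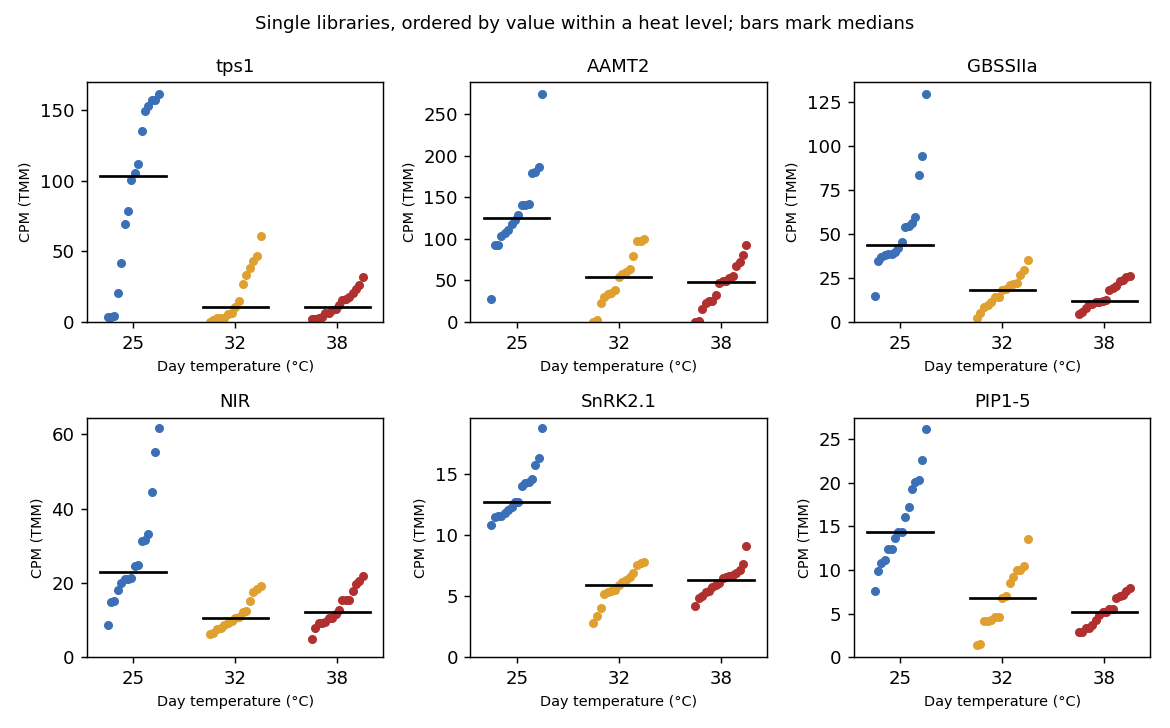
CPM (TMM) of 6 of the genes in single libraries at 25, 32 and 38°C (16, 15 and 16 libraries), ordered by value within a heat level, with bars at the medians. SnRK2.1 shows no overlap between 25°C and the warmer levels, while tps1 and AAMT2 spread widely at 25°C.

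The 100 held 3 genes of nitrate assimilation. GRMZM2G076723 (chr1:198771866-198776347), placed in the nitrate reductase class of the MapMan functional annotation, had 0.188, 2.73 and 11.9 CPM at 25°C, 0, 0.0984 and 0.635 CPM at 32°C and 0, 0.345 and 0.761 CPM at 38°C, so that 11 of the 15 libraries at 32°C lay below all libraries at 25°C. NIR (GRMZM2G079381), the nitrite reductase gene, had 8.80, 23 and 61.7 CPM at 25°C, 6.20, 10.5 and 19.3 CPM at 32°C and 4.97, 12.3 and 21.9 CPM at 38°C. Its fall was 1.13 overall and 1.89 in L017. In S070 it was 0.08, but 0.79 without the 32°C library that resembled another line. The gene sum1 (GRMZM2G105604, chr3:216674441-216678588) encodes the uroporphyrinogen III methyltransferase that starts siroheme synthesis, and its medians were 7.61, 3.13 and 2.69 CPM at 25, 32 and 38°C. Its fall was also smallest in S070, at 0.08 with that library and 0.55 without it. Among 13 measured genes of nitrate uptake and assimilation, a set drawn up after the 100 were known, these 3 belonged to the 100. Of the other 10, 5 fell from 25 to 32°C by edgeR's quasi-likelihood test and none rose, against 17.9% of all genes lower and 20.1% higher. They were NNR1, a nitrate reductase (-1.58 ± 0.24, SE), the ferredoxin-dependent glutamate synthase gene fgs1 (-0.71 ± 0.11), the nitrate transporter Nrt1.1 (-0.72 ± 0.13), and the glutamine synthetases gln5 (-0.77 ± 0.17) and GLN6 (-0.52 ± 0.18). Without the 3 libraries that resembled another line 4 of them fell (17.9% of all genes lower and 19.3% higher), as GLN6 (-0.30 ± 0.16, SE, adjusted p = 0.14) did not pass. The 5 that did not pass with all libraries included NAR (0.01 ± 0.40), gln1 (0.001 ± 0.152) and gln4 (0.01 ± 0.09). Another of them, gln3, had a standard error of 2236, so the test could not decide whether it changed. The genes that fell did not all stay low at 38°C. The mean log2(CPM + 1) of fgs1 was 7.32, 6.61 and 7.09 at 25, 32 and 38°C and that of GLN6 2.70, 2.26 and 2.62, while gln5 went from 3.85 to 3.18 and 2.39. An amino acid carrier, GRMZM2G164814, had medians of 2.27, 0.583 and 0.404 CPM. A second gene of the amino acid transport class, GRMZM2G010433, named here after its values were seen, had medians of 2.97, 0.457 and 0.674 CPM.

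Starch synthesis supplied GBSSIIa, Agp2 and Sugary1. GBSSIIa (GRMZM2G008263), a granule-bound starch synthase that makes amylose, had 14.8, 43.8 and 130 CPM at 25°C, 2.38, 18.2 and 35.2 CPM at 32°C and 4.28, 12.2 and 26.2 CPM at 38°C. Its fall of 1.66 ranged from 0.49 in S058 to 2.47 in L023, and S058 then had a second step of -2.12. Agp2 (GRMZM2G106213), a small subunit of ADP-glucose pyrophosphorylase, had medians of 2.92, 0.295 and 0.883 CPM, and a single P040 library at 32°C stood at 13.9 CPM while the other 14 were at most 1.18 CPM. Sugary1 (GRMZM2G138060, chr4:41396390-41405179), an isoamylase, had medians of 2.29, 0.374 and 0.382 CPM, and its fall was the most even of these 3 genes, between 0.83 and 1.38 in the 8 lines, although it was 0.51 in P040 without the libraries that resembled another line. The rest of the pathway did not share one direction. Among 11 other measured starch genes, 2 fell from 25 to 32°C, 4 rose and 5 did not pass the test (17.9% of all genes lower and 20.1% higher). For dull1, among those 5, the standard error was 1546, so the test could not decide. The starch synthase gene sugary2 rose too when the 3 libraries were left out (1.21 ± 0.42, SE, against 1.12 ± 0.47 with them). The starch synthase gene ss1 fell by 1.06 on the log2 scale and iso3 by 0.45. By contrast, the branching enzyme genes sbe1 (1.12 ± 0.10, SE) and sbe3 (0.93 ± 0.13) rose. So did the pyrophosphorylase large subunit sh2 (1.98 ± 0.36) and the pullulanase zpu1 (1.89 ± 0.22). The levels of sh2 and sugary2 were low, with means of 0.20 and 0.30 CPM at 25°C and 0.56 and 0.74 CPM at 32°C. The mean of sbe1 went from 9.15 to 19.3 CPM.

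The aquaporin PIP1-5 (GRMZM2G081843) had 7.63, 14.3 and 26.2 CPM at 25°C, 1.39, 6.81 and 13.5 CPM at 32°C and 2.89, 5.21 and 8.00 CPM at 38°C. Of the 8 other plasma membrane aquaporins measured, 7 fell from 25 to 32°C and none rose (17.9% of all genes lower and 20.1% higher). Those 8 did not stay low. From 32 to 38°C the mean log2(CPM + 1) of each rose, by 0.32 in PIP1-1 to 1.01 in PIP2-5, while PIP1-5 moved by -0.19. PIP2-4 fell by 2.79 on the log2 scale and PIP1-1 by 0.66, and PIP2-5 (-0.89 ± 0.37, SE) did not pass the test. Again 7 fell when the 3 libraries were left out, with PIP2-5 (-1.20 ± 0.37) among them and PIP2-3 not. The change of PIP2-3 in that fit was -1.99 with a standard error of 5195, so the fit could not decide whether PIP2-3 fell. Sod4A (GRMZM2G058522), a cytosolic copper/zinc superoxide dismutase, had 14.3, 20.5 and 41.8 CPM at 25°C, 6.48, 8.43 and 25.0 CPM at 32°C and 5.62, 8.88 and 17.5 CPM at 38°C. Among the other 6 superoxide dismutases 1 fell (sod2), 1 rose (sod-1a) and 4 did not pass, with the same 17.9% and 20.1% over all genes and the same counts without the 3 libraries.

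The largest fall of all, 2.41, belonged to GRMZM2G117608 (chr6:147522832-147527292), an uncharacterized protein of the biotic stress class. It had 1.88, 13.2 and 23.8 CPM at 25°C, 0, 0.998 and 2.84 CPM at 32°C and 0.240, 1.07 and 13.8 CPM at 38°C. The library at 13.8 CPM was from L017, and L017 had the highest mean level of this gene. PR-1/prp4 (GRMZM2G465226), a pathogenesis-related protein gene, was the least regular, with 0, 5.87 and 123 CPM at 25°C, 0, 2.43 and 36.6 CPM at 32°C and 0.0481, 2.47 and 25.2 CPM at 38°C. It was highest in S058 at 25°C, at 75.7 and 123 CPM, and was lower at 32°C than at 25°C in 6 of the 8 lines. GRMZM2G007249 (chr7:124313854-124315851) belongs to the class of 1-aminocyclopropane-1-carboxylate oxidases, which make ethylene, and its medians were 26.0, 5.81 and 5.24 CPM.

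Several genes of signalling and regulation were among the 100. SnRK2.1 (GRMZM2G035809), of a kinase family that acts in osmotic stress and abscisic acid signalling, had 10.8, 12.7 and 18.8 CPM at 25°C, 2.82, 5.94 and 7.83 CPM at 32°C and 4.16, 6.30 and 9.06 CPM at 38°C, and all libraries at 32 and 38°C lay below all at 25°C. The CBL-interacting kinase CIPK16 (GRMZM2G330049) had medians of 7.46, 2.0 and 1.91 CPM. GRMZM2G130505, with a BTB/POZ domain found in adaptors of ubiquitin ligases, had medians of 14.1, 2.78 and 2.46 CPM and a fall of 1.27 to 2.75 in the 8 lines, or from 1.04 in P040 without the 3 libraries that resembled another line. The transcription factor genes PIF5, TCP30 and HB84 had smaller falls of 1.01, 1.09 and 0.98. The fall of TCP30 was -0.02 in L017 and 0.08 in L023 against 1.13 to 1.58 in the other lines, and up to 1.79 in P040 without the 3 libraries.

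Most of the abundant members have no name in the sources used. Next to AAMT2, the highest mean levels belonged to GRMZM2G075502 (68.5 CPM), GRMZM2G125635, GRMZM2G001724, GRMZM2G170120, GRMZM2G011269, GRMZM2G428391, GRMZM2G106119, GRMZM5G814314 and GRMZM2G312910 (51.8 CPM). GRMZM5G814314 had 61.0, 94.4 and 123 CPM at 25°C, 14.7, 31.7 and 66.0 CPM at 32°C and 17.4, 32.8 and 50.4 CPM at 38°C. Among genes of the largest falls without a name were GRMZM2G054803 (1.83), GRMZM2G046498 (1.61), GRMZM2G170625 (1.59) and GRMZM2G076771 (1.59). The members were not all separate measurements. The counts of GRMZM2G002614 and GRMZM5G861300 differed by at most 1 read in any library, and those of the neighbours GRMZM2G124644 and GRMZM2G124593 followed each other over the 47 libraries (r = 0.996), so reads may be shared between the genes of each pair.

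All libraries at 32°C lay below all at 25°C in 10 of the 100 genes (0.302% of all genes), and all at 38°C below all at 25°C in 15 (0.860%). Within lines, 84 of the 100 were lower at 32°C in all 8 lines (8.48% of all genes), 14 in 7 lines and 2, PR-1/prp4 and GRMZM2G137329, in 6. These shares follow from how the genes were chosen.

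The inbred lines differed in how the loss was spread over the heat levels. The median fall of the 100 genes from 25 to 32°C was 0.79 in S058, 0.97 in S067, 1.12 in L012, 1.14 in L017, 1.16 in S070, 1.36 in L023 and L043, and 1.6 in P040. P040 had the largest fall for 40 of the genes and S058 the smallest for 35. From 32 to 38°C the median then moved by -0.36 in S058, -0.19 in S070, -0.10 in S067, 0.02 in L012, 0.09 in L017, 0.17 in L023, 0.27 in P040 and 0.36 in L043. In S058, 82 of the 100 genes were lower at 38 than at 32°C, and in L043 21. Both steps share the 32°C libraries, so a line with a low level at 32°C has a larger fall and a higher second step by construction. From 25 to 38°C, which leaves those libraries out, the medians of the net fall lay closer together, between 1.01 in L012 and 1.35 in S070. Without the 3 libraries that resembled another line, the median fall was 1.44 in S070 and 1.57 in P040, and their second steps were 0.03 and 0.46.

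**Figure D3:**
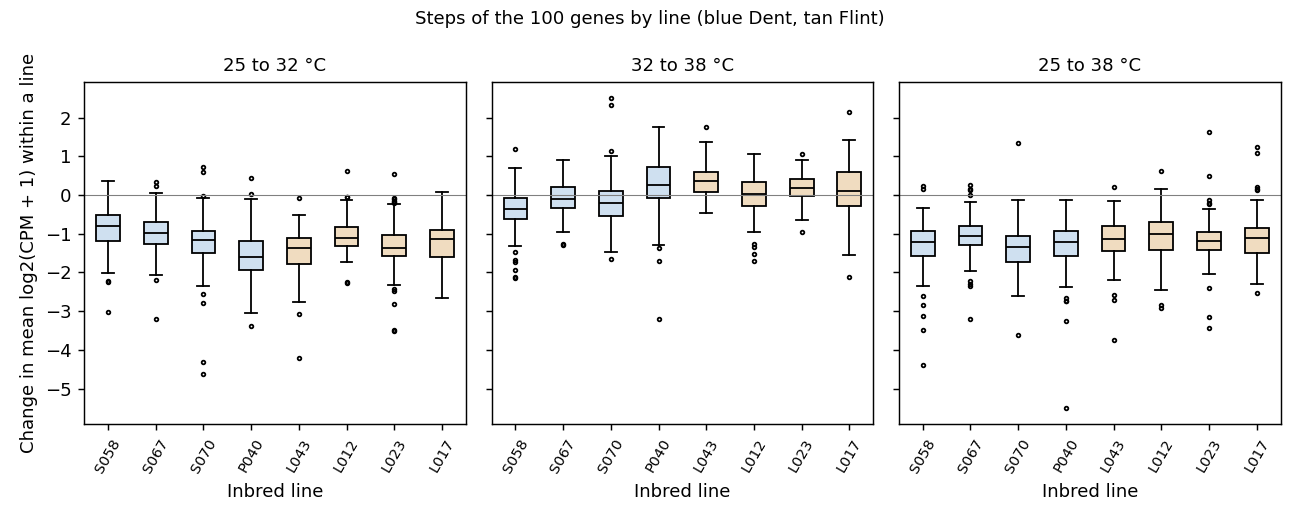
Change in mean log2(CPM + 1) of the 100 genes within each inbred line from 25 to 32°C, from 32 to 38°C and from 25 to 38°C. Boxes span the quartiles with the median, whiskers reach 1.5 times the box length and points lie beyond. The first step is downward in the median of every line, least in S058 and most in P040, and the medians of the net change are closer together.

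The 32°C libraries also differed between replicates. In each of the 7 lines with both libraries at 32°C, replicate 1 had the higher level over the 100 genes, by a median of 0.03 in S058 to 0.64 in L023, while the median difference over all genes was between -0.02 and 0. At 25°C replicate 1 was higher in 7 of 8 lines by at most 0.26, and at 38°C in 5 of 8 lines, with differences from -0.28 to 0.05. Over the same 7 lines, the median fall was 1.04 from replicate 1 libraries and 1.29 from replicate 2, and the median second step -0.18 and 0.19. L017 has replicate 1 alone at 32°C. What lies behind this difference between replicates was not tested.

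Whether the step from 25 to 32°C differed between lines was tested with edgeR's quasi-likelihood test over all 47 libraries and 17905 genes. Between the 8 lines, 0 of the 100 genes passed an adjusted p of 0.05 (0.0112% of all genes and 0.0142% of those with a mean CPM of at least 1), with 31 at an unadjusted p under 0.05 (11.7% of all genes). By edgeR's likelihood ratio test 8 passed (3.59% of all genes), and by DESeq2 4 (1.89% of those it tested). Between Flint and Dent, 0 passed (0.0614% and 0.0782%), with 18 unadjusted (8.55%) and 1 by each other tool (0.324% and 0.194% of tested genes). Between tolerant and susceptible lines, 0 passed (0% of all genes), with 19 unadjusted (7.84%) and 0 by each other tool (0.117% and 0.156% of tested genes). Without the 3 libraries each comparison gave 2 genes (1.29%, 0.525% and 0.318% of all genes). They were tps1 and GRMZM2G001724 between the 8 lines, GRMZM2G339091 and GRMZM2G179292 between the pools, and GRMZM2G011269 and GRMZM2G001724 between tolerant and susceptible lines, where the fall was smaller in the tolerant lines by 1.41 and 1.26 on the log2 scale. GRMZM2G339091 was not among the genes named by rule and is given because the count is small.

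The step from 32 to 38°C differed between the lines in 3 of the 100 genes (1.68% of all genes and 1.96% of those with a mean CPM of at least 1), with 35 at an unadjusted p under 0.05 (18.4%). GRMZM2G032028 was higher at 38 than at 32°C in the 4 Flint lines, by 0.51 in L012 to 1.14 in L017, and lower in the 4 Dent lines, by -0.29 in S067 to -1.19 in S070, or -1.0 without the library that resembled P040 (adjusted p = 0.032, edgeR's quasi-likelihood test). In L023 its libraries went from 22.5 and 15.6 CPM at 32°C to 35.9 and 30.7 CPM at 38°C, and in S070 from 12.5 and 9.27 CPM to 3.27 and 5.19 CPM. GRMZM2G170625 moved by 1.36 in L043 and 1.25 in L017 but by -1.70 in L012 (adjusted p = 0.026, same test), so lines of one pool lay at both ends. GRMZM2G011269 moved by 1.76 in P040 and by -1.72 in S058 (adjusted p = 0.045, same test). Its P040 libraries had 20.3 and 16.4 CPM at 32°C and 59.7 and 68.4 CPM at 38°C, and those of S058 56.3 and 60.4, then 15.8 and 18.3 CPM. Without the 3 libraries, 23 of the 100 genes passed (9.60% of all genes), among them these 3, tps1, GBSSIIa, Agp2, PIP1-5, Sod4A and GRMZM2G164814. With the replicate number as a block within heat level 21 genes passed (5.35% of all genes), and whether the numbers mark shared blocks is not stated. With single libraries left out, the number of genes called ranged from 0, without L012 at 32°C replicate 1, to 16, without P040 at 32°C replicate 1. Line values of the genes called without the 3 libraries are not read further, since the genes were picked by this same step. Over all 100 genes without the 3 libraries, the median second step ranged from -0.36 in S058 to 0.46 in P040. P040 and S070 then each had replicate 2 alone at 32°C.

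The rule did not compare lines, but it did use the level of a gene, through the minimum of 1 on mean CPM over all libraries and through log2(CPM + 1), so a gene high in a few lines could enter through those lines. The differences between lines in level, averaged over the heat levels, are therefore given as counts beside those over all genes, and nothing is read from their share. Between the 8 lines it differed in 80 of the 100 genes (58.9% of all genes and 59.1% of those with a mean CPM of at least 1), and in 87 without the 3 libraries (63.4%). Between Flint and Dent lines, 48 genes differed (35.2% and 37.1%), 23 higher in Flint (15.7%) and 25 higher in Dent (19.5%), and 56 without the 3 libraries (37.4%). Between tolerant and susceptible lines, 30 differed (20.0% and 21.2%), 10 higher in tolerant (10.2%) and 20 higher in susceptible lines (9.76%), and 38 without the 3 libraries (22.0%). Libraries, not lines, were the units of these tests, and an exact permutation test over 4 lines against 4 cannot give a p below 0.0286.

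**Figure D4:**
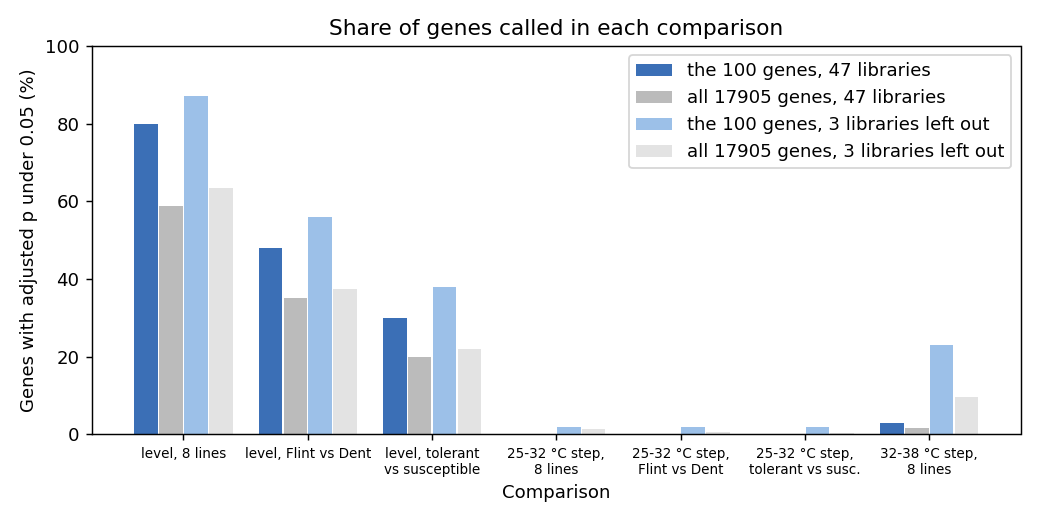
Share of genes with an adjusted p under 0.05 in 7 comparisons, for the 100 genes and for all 17905 genes, with 47 libraries and with the 3 libraries that resembled another line left out. Level differences were called in 80, 48 and 30 of the 100 genes, and the step from 32 to 38°C in 3, or in 23 without the 3 libraries.

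In some genes the line differences were close to presence and absence. GRMZM2G007249, of the ethylene-forming oxidase class, had 0 to 0.188 CPM in the 6 libraries of L012, which is at most 2 reads in a library, and between 0.870 and 85.4 CPM in all libraries of the other lines. It was lower in tolerant than in susceptible lines by a fitted 2.64 on the log2 scale (adjusted p = 3.4e-10, edgeR's quasi-likelihood test, exact permutation p over lines = 0.2, two-sided), a size that rests on the near-zero counts of L012. GRMZM2G458581 (chr10:26656522-26658922) had at most 1.75 CPM in L043, L012 and L023, and 1.38 to 31.5 CPM in the Dent lines and 2.29 to 16.2 CPM in L017. Flint minus Dent was -2.64 ± 0.20 (SE; adjusted p = 9.0e-12, same test, exact permutation p = 0.114). GRMZM2G137329 had 5.67 to 55.7 CPM in the Flint lines L012 and L017 and at most 13.2 CPM in other lines, apart from the library labelled P040 at 25°C replicate 1 at 29.8 CPM. Flint minus Dent was 3.12 ± 0.28 (SE; adjusted p = 3.8e-10, exact permutation p = 0.0286, the smallest possible). Its fall was 0.05 in L012 and -0.02 in L017, the lines of its highest level.

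**Figure D5:**
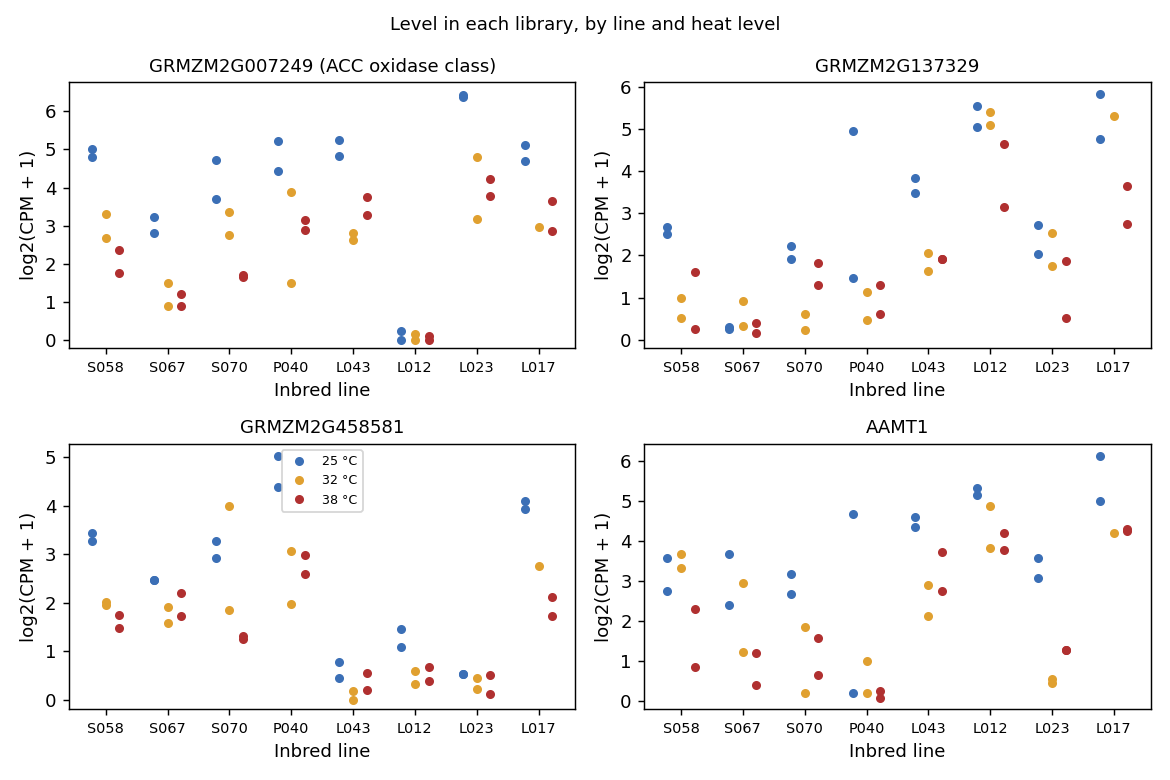
log2(CPM + 1) of 4 of the genes in each library, by inbred line (Dent lines left, Flint lines right) and heat level (colours). GRMZM2G007249 is near 0 in L012, GRMZM2G458581 is low in 3 Flint lines, and AAMT1 in P040 is high in 1 library at 25°C alone.

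Other level differences had the Flint and Dent lines fully apart in some genes, while in the rest the groups of lines overlapped. GRMZM2G054803 was higher in every Dent than in every Flint line (Flint minus Dent -1.42 ± 0.29, SE, adjusted p = 0.00022, exact permutation p = 0.0286), as were CIPK16 (-0.96 ± 0.19, adjusted p = 0.00021), GRMZM2G170120 (-0.74 ± 0.11, adjusted p = 4.0e-06), GRMZM2G001724 (-0.60 ± 0.11, adjusted p = 0.00010) and Sugary1 (-0.77 ± 0.25, adjusted p = 0.015), each with the same exact p. For Sugary1 the adjusted p was 0.11 without S058 at 32°C replicate 2. AAMT1 was higher in Flint (1.97 ± 0.38, adjusted p = 0.00014, exact p = 0.0857), and AAMT2 likewise (1.16 ± 0.28, adjusted p = 0.0014, exact p = 0.114). Without the 3 libraries these values were 2.54 and 1.54. The gene tps1 was higher in Flint by 0.93 ± 0.30 (SE, adjusted p = 0.016, exact permutation p = 0.314), and by 1.65 without the 3 libraries. AAMT1 was also higher in tolerant lines (1.33 ± 0.33, adjusted p = 0.0033, exact permutation p = 0.371), by 1.90 without the 3 libraries, and its adjusted p was 0.060 without S067 at 38°C replicate 1. AAMT2 did not pass between tolerant and susceptible lines with all libraries. Without the 3 libraries it was higher in tolerant lines by 1.02, although the susceptible L017 had its highest mean level. GBSSIIa was higher in Dent (-0.71 ± 0.14, adjusted p = 0.00016), but the pools overlapped. In mean log2(CPM + 1) the Flint line L017 (4.585) lay above the Dent line S058 (4.512), and L023 was lowest (3.276). GRMZM2G117608 was lower in tolerant lines (-1.16 ± 0.22, SE, adjusted p = 0.00028, edgeR's quasi-likelihood test), but without L023 at 32°C replicate 1 the value was -0.69 and did not pass. Lower in tolerant lines with and without the 3 libraries were GRMZM2G179292 (-1.34 ± 0.12, adjusted p = 1.5e-09) and GRMZM2G091456 (-0.95 ± 0.10, adjusted p = 9.6e-09), and GRMZM2G170625 was higher (1.20 ± 0.17, adjusted p = 2.8e-06). In mean log2(CPM + 1), GRMZM2G179292 was low in L012 (1.054) and L043 (2.153), but S058 (3.133) and S067 (3.518) were close to the susceptible lines (3.385 to 3.617). GRMZM2G091456 was low in S067 (1.654), and the other tolerant lines (3.057 to 3.619) overlapped the susceptible ones (3.273 to 4.053). For GRMZM2G170625 the tolerant S058 (1.984) lay below the susceptible L017 (2.49). No difference over heat tolerance reached the smallest exact p among the genes named here.

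Of 13 functional lists matched by gene symbol, 7 held no member, namely metal handling (6 genes measured), flavonoids and phenylpropanoids (15), cold and dehydration (12), light harvesting and photosystems (14), the circadian clock (6), cell wall (16) and protein folding (28). Only 16 of the 100 members have a symbol, so most could not enter any list. With 100 members among 17905 genes, lists of this size would hold few by share alone. A list without a member thus does not show that its process is absent. The lists for water channels and transport (48 measured), redox and detoxification (43), nitrogen and amino acids (19) and transcription factors (146) held 1 member each. Those for carbohydrates (34) and hormones (63) held 2 each. The gene tps1 was in both, matched by the letters of its names (tps and KS) alone. Outside the 100, the genes that passed from 25 to 32°C are given here against 17.9% of all genes lower and 20.1% higher. In water channels and transport 21 fell and 1 rose, in transcription factors 32 and 18, in hormones 17 and 6, in carbohydrates 9 and 6, in redox and detoxification 9 and 5, in nitrogen and amino acids 8 and 2, and in protein folding 7 and 8. In flavonoids and phenylpropanoids 6 fell and 1 rose, in metal handling 3 and 0, in cell wall 2 and 1, in light harvesting and photosystems 1 and 12, in the circadian clock 0 and 4, and in cold and dehydration 0 and 3. In light harvesting 8 genes rose and 1 fell, and in cell wall 3 fell and 3 rose, when the 3 libraries that resembled another line were left out.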

How the data were processed

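Leaf RNA was depleted of ribosomal RNA and sequenced as single-end reads of 100 bp. The authors mapped reads to B73 RefGen_v3 with TopHat 2.0.3, counted them per gene with easyRNASeq and kept genes with at least 2 CPM in at least 2 libraries. The deposited values are raw counts per gene, and the counting is not stated to use strand. Replicates were 2 pools of plants per line and heat level, so p-values measure the spread between pools.

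TMM CPM and quasi-likelihood tests were computed with edgeR 4.0.16 in R 4.3.3, with a mean for each of the 24 line and heat level combinations and Benjamini-Hochberg adjustment over 17905 genes. The code was tested on simulated counts. DESeq2 1.42.0 was an alternative. For the omission of single libraries the dispersion trend of all libraries was kept. The step test of genes outside the 100 and the pathway sets were added later. The members and lists were chosen with earlier results of these data known.

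Names came from RefSeq (NAM-5.0 assembly, 79 of the 100 genes matched, 16 with a symbol) and, for 12 genes, from descriptions, MapMan classes and coordinates in the study's gene tables. Sequences and promoter motifs were not analysed here. Named were the 12 largest falls, the 10 highest levels, up to 3 genes per test by smallest adjusted p, all members with a name, and those at the limits. The values of 1 named member are not reported here. In the count table no column belonged to another sample.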

Additional observations from a re-analysis of the deposited data

Results flagged for a closer look

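The step from 32 to 38°C differed between the 8 lines in GRMZM2G170625 (adjusted p = 0.0264, edgeR's quasi-likelihood test), GRMZM2G032028 (0.032) and GRMZM2G011269 (0.0451). In GRMZM2G032028 the 4 Flint and 4 Dent lines moved in opposite directions, and the difference between the pools in this step was not tested.

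In 4 of 83 series of values over the 8 lines, a line lay far from the others, as the gap to its neighbour divided by the whole range. Chance alone gives this in about 1 in 20 series. The fall of GRMZM2G054803 was 4.20 in L043, with the next line at 2.12 (gap share 0.623). The mean level of GBSSIIa was 3.28 in L023, with the next at 4.34 (0.541). The fall of GRMZM2G075502 was 2.75 in P040, with the next at 0.98 (0.702), but without the 3 libraries that resembled another line P040 was at 2.19 and S070 at 2.04. The mean level of GRMZM2G091456 was 1.65 in S067, with the next at 3.06 (0.585).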

How the results depend on the processing

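The numbers of genes called for level did not move by more than 1.5 times under any alternative, and leaving out single libraries gave 77 to 87 genes between lines, 46 to 53 between pools and 29 to 33 over heat tolerance. For the step from 25 to 32°C, the 0 calls between lines became 8 by edgeR's likelihood ratio test, 4 by DESeq2, 2 without the 3 libraries, and 0 to 4 when single libraries were left out (4 without S070 at 32°C replicate 2, 1 without S070 or P040 at 32°C replicate 1). Those between pools became 1 by each of these tools, 2 without the 3 libraries and 0 to 2 with single libraries left out (2 without P040 and 1 without S067 at 32°C replicate 1). Those over heat tolerance became 2 without the 3 libraries and stayed at 0 with single libraries left out.

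For the step from 32 to 38°C, the 3 calls became 23 by the likelihood ratio test, 19 by DESeq2, 23 without the 3 libraries and 0 to 16 with single libraries left out. The count was 16, 8 and 1 without P040 at 32°C replicate 1, 32°C replicate 2 and 38°C replicate 1, 7, 11 and 1 without the same libraries of S070, 0 and 1 without L012 at 32°C replicate 1 and 2, 1 without S058 at 32°C replicate 2, 5 without L023 or S067 at 32°C replicate 1, and 6 without L043 at 38°C replicate 1. The adjusted p of GRMZM2G011269 was above 0.05 in 32 of 46 omissions, of GRMZM2G032028 in 6 and of GRMZM2G170625 in 1. The cause was not tested. Over all genes the calls for this step rose too, from 1.68% to 11.4% by the likelihood ratio test and 6.41% by DESeq2. L017 at 32°C could not be fitted when its only library was left out.

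The study used a randomized complete block design, but whether a replicate number marks the same blocks in every line is not stated. Of 77 correlations between the deviations of same-numbered libraries within a heat level, 58 exceeded 0.1 (median 0.189), so the numbers may pair some of the samples. With the replicate number as a block, the step from 32 to 38°C gave 15 calls (4.4% of all genes), and with a replicate block within heat level 21 (5.35%). The latter gave 2, 1 and 1 calls for the earlier step between lines, between pools and over heat tolerance (0.614%, 0.112% and 0.14% of all genes).

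The rule picked 0 of the 100 genes again on library totals, where their median fall was 0.486 and second step 0.888, 48 from replicate 1 alone, 53 from replicate 2 alone, 72 with the 11 most abundant genes left out and 72 with a mean CPM minimum of 5. It picked 84 to 97 when single libraries were left out, where the median fall was 1.105 to 1.159 and the second step 0.004 to 0.072. Depth at 38°C limits low genes, and after thinning to the smallest library 76 were picked again.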
